A study of Mus musculus with 3 samples.

Results

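Described here are 10 mouse genes of purinergic and adenosine signalling: the ion channel gene P2rx4, the nucleotide receptor genes P2ry6, P2ry12, P2ry13 and P2ry14, the adenosine receptor genes Adora2a and Adora2b, the enzyme genes Entpd1 and Nt5e, which act outside the cell, and the adenosine deaminase gene Ada. They were taken from a fixed list of symbols, matched through the transcript tables to gene identifiers. All 10 were found among 55536 annotated genes, of which 22015 are protein-coding genes of the nuclear genome. The samples were macrophages grown from bone marrow of C57BL/6J mice, in 1 group of 3 libraries, replicates 1 to 3. All 3 cultures received Lipid A, the endotoxin component sensed by Toll-like receptor 4, at 100 ng/ml for 12 h, then 12 h of washout, then Lipid A again at 100 ng/ml for 25 min. From 1 µg of total RNA of the cytosol, ribosomal RNA was removed and the rest sequenced. The replicates are separate biosamples with 1 donor entry, so part or all of each SD may be technical. The p-values below concern these samples only and do not measure the size of their spread. Untreated cells and nuclear RNA were not analysed here, so no value below is a response to Lipid A.

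Cells release ATP and other nucleotides when stressed or damaged, and neighbouring cells sense them. P2X receptors are ATP-gated cation channels, and P2Y receptors are G protein-coupled receptors for ATP, ADP, UDP or UDP sugars. Enzymes on the cell surface cut the nucleotides stepwise: CD39, the product of Entpd1, turns ATP and ADP into AMP, and CD73, the product of Nt5e, turns AMP into adenosine. Adenosine acts on its own G protein-coupled receptors, of which the products of Adora2a and Adora2b raise cyclic AMP and dampen inflammatory output of macrophages, and adenosine deaminase converts it to inosine.

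Total expected counts were 55517261, 21311556 and 45635014 in replicates 1, 2 and 3, so low genes were least precise in replicate 2. Levels of different genes are given in TPM (each transcript's share, per length, of 1000000). Nuclear protein-coding genes held 29.6%, 40.4% and 34.8% of TPM in replicates 1, 2 and 3, so libraries are compared in protein-coding CPM, which is a gene's count per 1000000 counts of these genes. By a one-sided 95% limit for counting error, a count of 0 allows up to about 3 counts. That is 0.0626, 0.153 and 0.0740 protein-coding CPM in replicates 1, 2 and 3, and two-sided intervals given below reach higher. Macrophage markers were at 1 TPM or more in every library for 6 of 6 genes and summed to between 4647 and 7217 TPM. Of 36 markers of 9 other cell types, 9 had no count in any library, and S100a8 and Kdr were among the few that reached that limit.

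In every library 8 of the 10 genes reached 1 TPM, against a background of 42.1% of nuclear protein-coding genes. The other two were Adora2b and Nt5e. The levels ran from the P2X channel gene P2rx4, with 274 ± 83.2 TPM (SD, n = 3), down to Nt5e, with 0.05 TPM at most. P2rx4, P2ry6, P2ry14 and Entpd1 stood at or above 26.9 TPM in every library, and P2ry13, P2ry12, Adora2a and Ada lay between 1.28 and 8.30 TPM. The median over the 10 genes was 5.81 ± 0.813 TPM, and that over all nuclear protein-coding genes was 0.187 ± 0.0321 TPM. The 10 genes were chosen with earlier results of these data known, so no comparison with the background here tests the family. In the read-based transcript tables, a second quantification of the same libraries, 6 of the 10 genes reached 1 TPM in every library, against a background of 31.1%. P2ry12 and Ada fell below the limit there, with 2.22, 1.92 and 0.78 TPM for P2ry12 in replicates 1, 2 and 3.

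**Figure D1:**
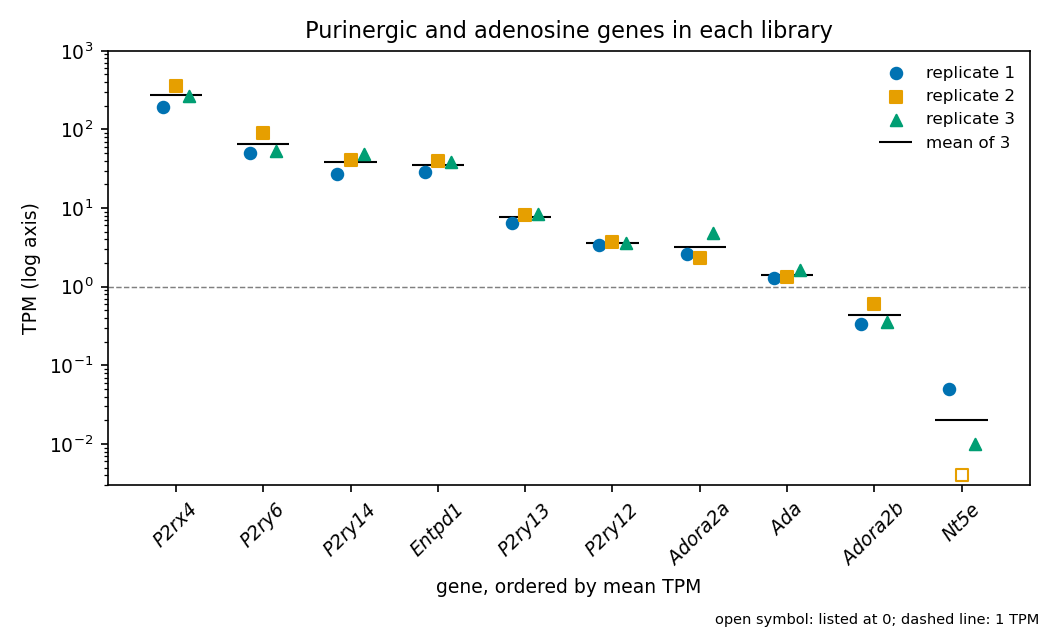
Level of each gene in TPM (log axis) in replicates 1 to 3, with a line at the mean of the 3 libraries and genes ordered by that mean. P2rx4 lies at 194 TPM or above in every library, and Nt5e is listed at 0 in replicate 2.

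Neighbours in this order were taken to differ beyond their spread where the log2 ratio of (TPM + 0.1) had 1 sign in 3 of 3 libraries and a mean above 2 SD. This held for 6 of the 9 neighbouring pairs. P2ry6 and P2ry14, P2ry14 and Entpd1, and P2ry12 and Adora2a were not separated by it. Read-based TPM also separated 6 pairs, with Entpd1 above P2ry14.

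P2rx4 encodes the P2X4 channel, an ATP-gated cation channel that macrophages keep largely on lysosomes and move to the surface. The gene (ENSMUSG00000029470.15, mm10 chr5:122707544-122729738, plus strand) had 194, 360 and 268 TPM in replicates 1, 2 and 3, which placed it at the 98.5th percentile of nuclear protein-coding genes with at least 1 TPM. In protein-coding CPM the same libraries had 659, 675 and 739, so the highest was 1.12-fold above the lowest. The spread in TPM was thus much wider than that in protein-coding CPM, where the 3 libraries were close. Rescaled to nuclear protein-coding genes, TPM was 653, 889 and 772 in replicates 1, 2 and 3. TPM also depends on the effective length of the gene, listed at 1804, 1370 and 1720 bases, and CPM does not. The read-based tables gave 165, 207 and 73.9 TPM, on a scale where nuclear protein-coding genes held 20.5%, 21.4% and 7.95% of TPM. Rescaled to these genes, no mean of the 8 genes that reached 1 TPM differed over 2-fold between quantifications, against a background of 0.333% higher and 0.437% lower by the reads.

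Most of the P2rx4 signal was assigned to transcripts that leave out 1 coding exon. P2rx4-201 carries 12 exons and codes for 388 amino acids. P2rx4-202 leaves out exon 6, which has 81 bases and so removes 27 codons in frame. P2rx4-206 leaves out exon 10, which has 66 bases and removes 22 codons in frame. The sequences of both exons and of the junctions that replace them are shown because only reads over these bases tell the forms apart at these places. Exon 6 (mm10 chr5:122724594-122724674) and exon 10 (chr5:122727399-122727464) are in capitals, with 20 bases of each neighbouring exon in lower case, and all are on the plus strand.
P2rx4 exon 6: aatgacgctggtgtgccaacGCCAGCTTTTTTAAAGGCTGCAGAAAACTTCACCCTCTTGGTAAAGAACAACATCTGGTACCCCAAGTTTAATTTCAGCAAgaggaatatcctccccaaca
P2rx4-202 junction: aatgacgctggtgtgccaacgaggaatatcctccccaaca
P2rx4 exon 10: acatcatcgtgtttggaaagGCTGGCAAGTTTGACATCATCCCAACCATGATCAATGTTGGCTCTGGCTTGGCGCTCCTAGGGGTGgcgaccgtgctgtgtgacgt
P2rx4-206 junction: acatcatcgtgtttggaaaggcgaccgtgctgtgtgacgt

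**Figure D2:**
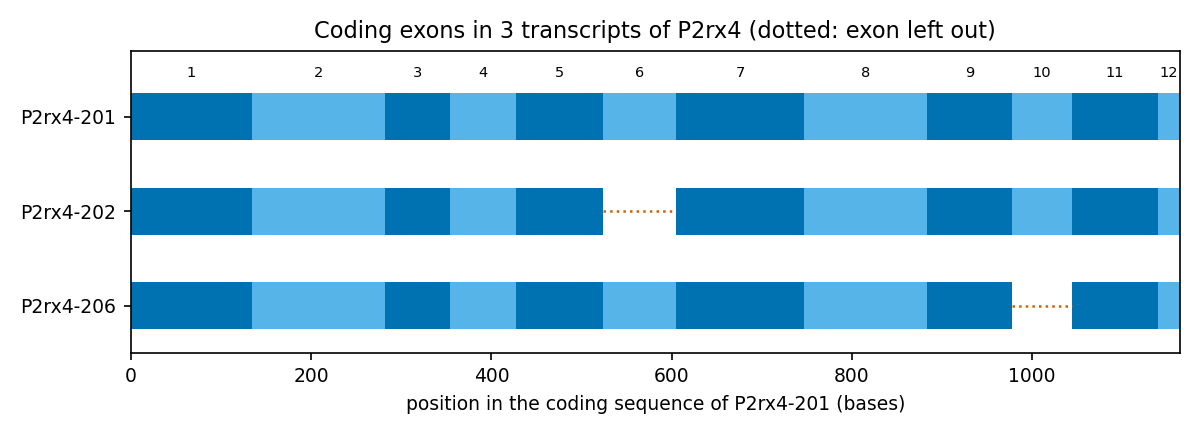
Coding exons of 3 annotated P2rx4 transcripts, to scale in bases of the P2rx4-201 coding sequence, with exon numbers above and a dotted line where an exon is left out. P2rx4-202 lacks the 81 bases of exon 6 and P2rx4-206 the 66 bases of exon 10.

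P2rx4-202 held 51.0%, 42.5% and 55.5% of the gene's TPM in replicates 1, 2 and 3 of the aligned transcript tables, and 57.5%, 47.8% and 61.0% in the read-based ones. Over all transcripts that span the place, the share without exon 6 was 51.8% ± 5.48 (SD, n = 3) in the aligned tables and 57.8% ± 6.11 in the read-based tables. Both quantifications thus put exon 6 outside at least 45.6% of the spanning transcripts in each library. The share without exon 10 was 12.8%, 39.9% and 17.9% in the aligned tables, and 31.1%, 42.7% and 31.3% in the read-based tables. Replicate 2 was highest for this exon under both quantifications. The full form P2rx4-201 was the most dependent on the quantification, with 31.0%, 12.5% and 24.2% in the aligned tables and 3.64% ± 0.608 in the read-based tables. P2rx4-201, P2rx4-202 and P2rx4-206 have lengths of 2702, 1887 and 1111 bases and also differ outside these exons, so the shares rest on more than the junctions, and reads over each junction were not counted here.

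P2Y receptors that couple to Gq or Gi followed. P2ry6 encodes the receptor for UDP, which macrophages and microglia use in phagocytosis and chemokine release. P2ry6 (ENSMUSG00000048779.5, chr7:100937630-100974649, minus strand) had 50.6, 89.4 and 53.0 TPM in replicates 1, 2 and 3, or 162, 209 and 148 protein-coding CPM. Replicate 2 was the highest on both scales. P2ry14 encodes the receptor for UDP-glucose and related UDP sugars. P2ry14 (ENSMUSG00000036381.13, chr3:59113855-59153618, minus strand) had 26.9, 41.3 and 48.8 TPM, or 82.1, 85.7 and 118 protein-coding CPM, with replicate 3 the highest. P2ry6 was above P2ry14 by 0.71 ± 0.53 in log2 ratio (SD, n = 3), higher in 3 of 3 libraries, but in replicate 3 by only 0.12.

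P2ry13 and P2ry12 encode Gi-coupled ADP receptors. P2Y12 is the receptor that clopidogrel blocks on platelets and is a marker of resting microglia. P2ry13 (ENSMUSG00000036362.2, chr3:59207892-59210882, minus strand) had 6.42, 8.22 and 8.30 TPM, and P2ry12 (ENSMUSG00000036353.13, chr3:59216272-59262871, minus strand) had 3.43, 3.74 and 3.62 TPM. P2ry13 was above P2ry12 in every library, by 1.06 ± 0.15 in log2 ratio of TPM, and the values of the 2 genes did not overlap. In protein-coding CPM P2ry13 had 28.0, 25.9 and 30.9 and P2ry12 had 12.6, 9.96 and 11.5 in replicates 1, 2 and 3. Of the cells best known for P2Y12, 4 platelet or megakaryocyte markers summed to between 0.36 and 0.83 TPM. Of the microglia markers reported here, Tmem119 had 29, 22 and 19 counts and Siglech 14, 8 and 13 in replicates 1, 2 and 3. Sall1 had 0 counts in each library. The part of such cells in the P2ry12 values was not tested.

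P2ry14, P2ry13 and P2ry12 are neighbours in a stretch of 149 kb on chromosome 3 and lie within Med12l, a gene on the opposite strand. Med12l had 0.38, 0.36 and 0.45 TPM. Only the spans of the genes were compared here, not their exons. Whether counting used strand is not given in the sources used here, so how reads in any shared bases were assigned is not known. The 3 coding sequences were 54.8% to 55.7% identical to each other, and no identical run exceeded 11 bases. P2ry6 overlaps Gm44545, an uncharacterised transcript on the opposite strand that had 0.21 TPM on average.

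P2ry14 and P2ry12 used several annotated starts. For P2ry14 the far start, 59153492 on chromosome 3 (transcript P2ry14-203), held 49.3%, 40.5% and 56.1% of the gene's TPM in replicates 1, 2 and 3. The start of P2ry14-201 and P2ry14-202, at 59130622 to 59130624, held 43.6%, 55.9% and 40.0%. The near start was the higher of both only in replicate 2, and the read-based means were 45.9% for the far and 46.2% for the near start. These transcripts carry the same coding sequence. For P2ry12 the start at 59220200 to 59220259 held 56.3% ± 9.80 (SD, n = 3), that at 59262831 to 59262871 held 22.9% ± 8.87 and P2ry12-203 held 20.9% ± 1.13. In the read-based tables the order of these starts was not kept in replicate 3: the one at 59220200 to 59220259 held 44.9%, 67.4% and 27.2% in replicates 1, 2 and 3, and the one at 59262831 to 59262871 held 32.4%, 17.4% and 45.1%. P2ry13 has 1 annotated transcript, and P2ry6 gave 99.3% ± 0.559 of its TPM to transcripts from 1 start.

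**Figure D3:**
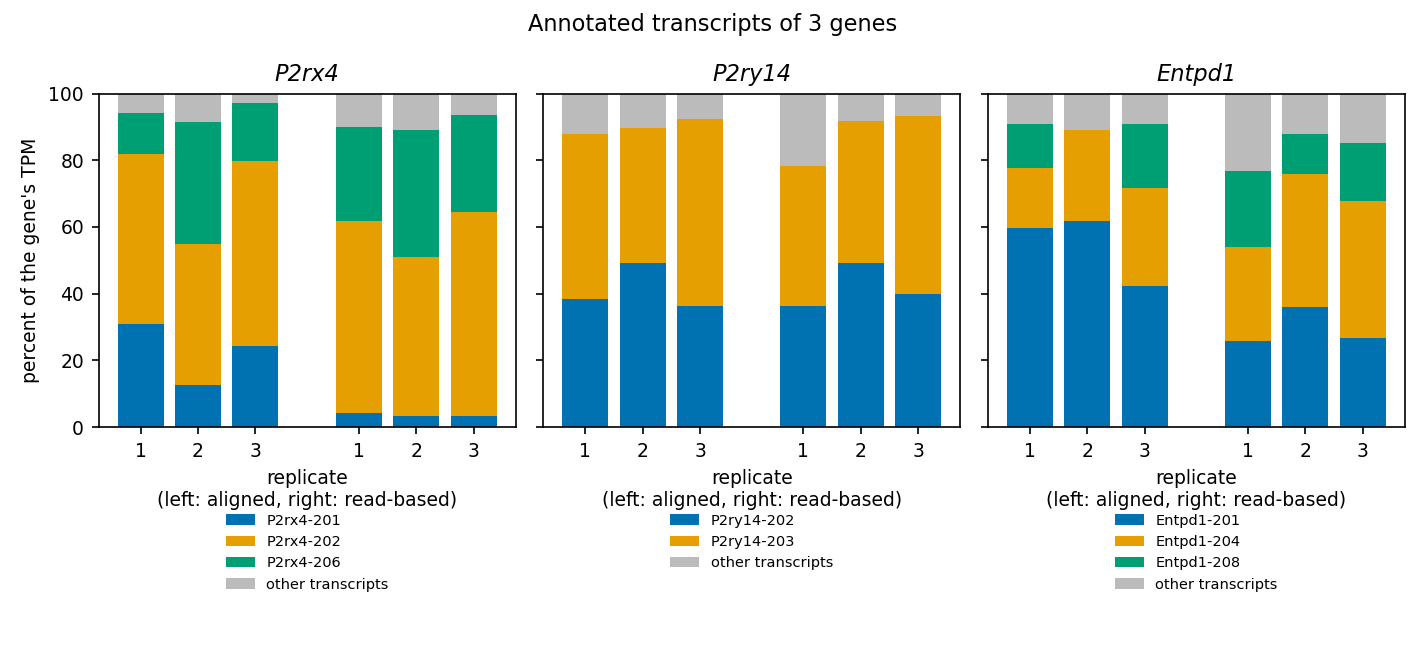
Share of each gene's TPM, in percent, held by its main annotated transcripts in replicates 1 to 3, from the aligned tables (left bars) and the read-based tables (right bars). P2rx4-201 drops to 3.64% on average in the read-based tables, while the P2ry14 shares stay near their aligned values.

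Transcripts with a retained intron took a larger share of counts in replicate 1. For P2ry14 the share was 9.89%, 0.894% and 0.586% in replicates 1, 2 and 3, from 389, 15 and 28 counts of P2ry14-204. For P2rx4 it was 4.01%, 0.948% and 0.546%. Replicate 1 was the highest in 3 of 3 genes that have such a transcript and a mean of 1 TPM or more, against a background of 73.9% of 5990 genes, and all nuclear protein-coding genes together had 2.66%, 1.77% and 1.49%. Malat1, a noncoding RNA that stays in the nucleus, had 8329, 3480 and 1444 protein-coding CPM in the same order of libraries; its part in these shares was not tested.

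Adenosine receptors were low. Adora2a encodes the high-affinity receptor of adenosine that couples to Gs. Adora2a (ENSMUSG00000020178.6, chr10:75316877-75334784, plus strand) had 2.62, 2.30 and 4.75 TPM in replicates 1, 2 and 3, or 11.3, 7.46 and 16.7 protein-coding CPM from 543, 146 and 676 counts. Replicate 3 was the highest and replicate 2 the lowest in protein-coding CPM, 2.22-fold apart. Read-based TPM, in which replicate 3 gave only 7.95% to nuclear protein-coding genes, was 2.07, 1.36 and 1.17 in replicates 1, 2 and 3, while read-based counts per protein-coding count kept Adora2a over 2-fold apart. Adora2a was the only 1 of the 8 genes with a mean of 1 TPM or more whose highest library was over 2-fold above the lowest, against a background of 4.26% of 9604 genes, and a share of 1 in 8 rests on a single gene. Without replicate 2 or without replicate 3 that count was 0. Replicate 2 was at 0.536 and replicate 3 at 1.77 of the mean of the other libraries, and libraries over 1.5-fold off in these directions were found for 5.5% and 2.68% of genes. None of the 8 genes was over 1.5-fold off in another library or direction, where the background was 4.24% above and 1.6% below for replicate 1, 1.31% above for replicate 2 and 4.05% below for replicate 3.

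Of the 10 marker lists, only those of endothelial cells, which also express Adora2a, and of mast cells shared the highest and lowest library with Adora2a in summed level. With 3 libraries few orders are possible, so some lists can match by chance, and the match is a description only. The mast cell list summed to 0.4, 0.06 and 0.49 TPM in replicates 1, 2 and 3, none of its 4 markers reached 1 TPM, and Mcpt4 and Fcer1a had no count. The endothelial list summed to 4.54, 4.16 and 9.88 TPM in replicates 1, 2 and 3, nearly all from Kdr with 4.24, 3.88 and 9.53 TPM, the only 1 of 4 markers above 1 TPM. Cdh5 had 0.30, 0.28 and 0.35 TPM, Tek was listed at 0 TPM in each library and Emcn had no count. The part of such cells in the Adora2a values was not tested, and in bulk RNA fewer cells of a type and less RNA per cell cannot be told apart.

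Adora2b encodes the Gs-coupled receptor of lower affinity, which needs more adenosine and is known to be inducible in macrophages. Adora2b (ENSMUSG00000018500.2, chr11:62248984-62266453, plus strand) had 0.34, 0.60 and 0.36 TPM from 50, 26 and 38 counts, below 1 TPM in every library. Rescaled to nuclear protein-coding genes it had 1.15, 1.48 and 1.04 TPM, above that limit. The log2 ratio of Adora2b to Adora2a was -2.60 ± 0.81 (SD, n = 3), with Adora2b lower in 3 of 3 libraries. Adora2a and Adora2b coding sequences were 53.0% identical, with a longest identical run of 15 bases. Of the other receptors of the family, Adora3 had 0.40, 0.30 and 0.58 TPM, overlapping Adora2b, and Adora1 had 0 counts in each library.

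**Figure D4:**
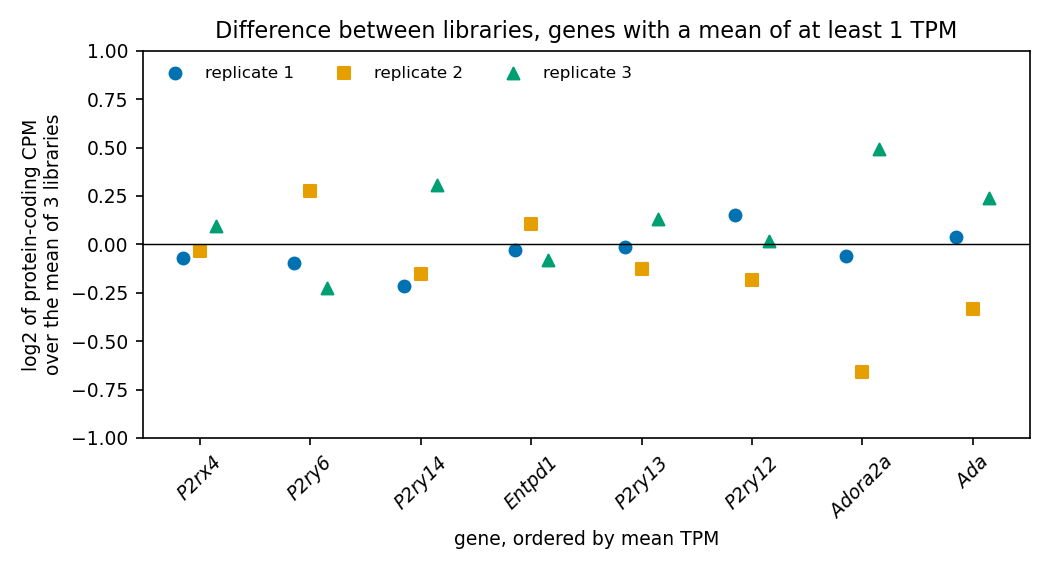
The log2 ratio of each library's protein-coding CPM to the mean of the 3 libraries, for the 8 genes whose mean was 1 TPM or more. Adora2a spans the widest range, with 7.46 protein-coding CPM in replicate 2 and 16.7 in replicate 3, while P2rx4 spans 659 to 739.

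Of the same 8 genes, replicate 3 was the highest library for 5, replicate 2 for 2 and replicate 1 for 1, where the background was 22.3%, 30.3% and 47.5% of 9604 genes. The members' differences were small apart from Adora2a, with the highest library at most 1.49-fold above the lowest for each of the others. The biological coefficient of variation, the spread between libraries beyond counting error, had a median of 0.180 over 9 genes, from 0.135 for Entpd1 to 0.353 for Adora2b. Its median over 12361 genes fitted was 0.175. The coefficient depends on abundance: the trend fitted at the level of Adora2b was 0.421, above its own value. Adora2a, with 0.288 against a trend of 0.211, P2ry14 and P2ry6 lay above their trend, and the others below.

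The ectoenzymes differed from each other the most of the 6 pairs compared. Entpd1 (ENSMUSG00000048120.16, chr19:40612366-40741602, plus strand) had 28.8, 39.6 and 38.4 TPM in replicates 1, 2 and 3, or 153, 168 and 147 protein-coding CPM. Its highest library was 1.14-fold above the lowest. Nt5e (ENSMUSG00000032420.8, chr9:88327197-88372092, plus strand) had 12, 0 and 3 counts, listed as 0.05, 0 and 0.01 TPM. Upper ends of two-sided exact Poisson 95% intervals, which cover counting error only, were 0.437, 0.188 and 0.216 protein-coding CPM. Of the 12 counts in replicate 1, 8 were assigned to retained-intron transcripts. The read-based tables gave Nt5e 42.4, 3.00 and 5.09 estimated counts.

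Per base of transcript, Entpd1 had 615 times the counts of Nt5e in replicate 1, with a counting interval from 352 to 1191. In replicate 3 the ratio was 3153, from 1078 to 15294, and in replicate 2, where Nt5e had 0 counts, the lower end of the same interval was 692. These intervals take the assigned counts as given, so the size of the ratio is less certain than they show. Upper bounds of TPM given with the data for Nt5e were 0.506, 1.76 and 0.536 in replicates 1, 2 and 3. Lower bounds for Entpd1 were 26.8, 38.3 and 35.2. With the pseudocount of 0.1, which understates the difference for a gene this low, the log2 ratio was 8.23 ± 0.56 (SD, n = 3). By read-based TPM it was 7.25 ± 0.61. RNA of the enzyme that makes AMP was thus measured at a moderate level, and RNA of the enzyme that turns AMP into adenosine was at or near the floor. Protein and enzyme activity were not measured.

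Entpd1 RNA came from 2 main starts that give the protein different first residues. The upstream start, at 40612366 to 40612397 on chromosome 19, held 17.9%, 27.5% and 29.3% of the gene's TPM in replicates 1, 2 and 3, and the downstream start, at 40659770 to 40659844, held 62.4%, 65.0% and 46.0%. The downstream start was the higher of both in every library. In the read-based tables the upstream start held 37.1% ± 5.82 and the downstream start 35.7% ± 3.51. By library these were 30.4%, 39.7% and 41.2% upstream and 32.6%, 39.5% and 35.0% downstream, so the order by TPM was kept only in replicate 1. Starts were grouped over gaps of up to 100 bases. Entpd1-208 and Entpd1-206 begin at 40660199 and 40660493 and are in neither group. They held 17.4% and 7.03% of read-based TPM on average, so the read-based order depends on where they are placed. Part of each share depends on Entpd1-208, a noncoding transcript of 204 bases that held 13.3%, 0% and 19.2% of TPM from 8, 0 and 15 counts. By counts, which short transcripts weigh on less, the aligned tables gave the upstream start 13.9%, 19.4% and 27.0% and the downstream start 85.1%, 79.8% and 71.8%. By read-based counts the upstream start held 35.5%, 36.8% and 43.7% and the downstream start 61.6%, 61.7% and 54.5%. The downstream start was thus the higher by counts in every library under both quantifications. Counts rise with length, and Entpd1-201 has 4221 bases against 2409 for Entpd1-204, so counts cannot settle the order. Per length, read-based TPM was 8.76, 10.6 and 4.16 for Entpd1-204 and 7.91, 9.67 and 2.69 for Entpd1-201 in replicates 1, 2 and 3.

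The coding starts are shown because they tell these forms apart in RNA, and the windows because they lie around the start of each form. Entpd1-204 (upstream) has 103 coding bases in an exon of its own, mm10 chr19:40612421-40612523, and Entpd1-201 (downstream) has 16, chr19:40659885-40659900. Those bases are in capitals, and the shared bases that follow are in lower case.
Entpd1-204 coding start: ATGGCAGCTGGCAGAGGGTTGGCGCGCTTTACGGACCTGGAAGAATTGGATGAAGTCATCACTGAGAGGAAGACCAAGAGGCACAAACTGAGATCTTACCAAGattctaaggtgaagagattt
Entpd1-201 coding start: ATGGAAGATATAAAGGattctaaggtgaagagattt
The windows below run from 250 bases before to 50 bases after each RefSeq start on GRCm38.p6, plus strand, chr19:40612116-40612415 and chr19:40659520-40659819, with motifs in capitals.
Entpd1 upstream window: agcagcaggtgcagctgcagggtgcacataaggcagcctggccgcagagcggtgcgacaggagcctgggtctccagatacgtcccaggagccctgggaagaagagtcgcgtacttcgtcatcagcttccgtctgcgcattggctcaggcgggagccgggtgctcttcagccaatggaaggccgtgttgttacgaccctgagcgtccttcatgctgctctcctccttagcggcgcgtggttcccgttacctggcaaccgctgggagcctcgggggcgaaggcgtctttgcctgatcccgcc
Entpd1 downstream window: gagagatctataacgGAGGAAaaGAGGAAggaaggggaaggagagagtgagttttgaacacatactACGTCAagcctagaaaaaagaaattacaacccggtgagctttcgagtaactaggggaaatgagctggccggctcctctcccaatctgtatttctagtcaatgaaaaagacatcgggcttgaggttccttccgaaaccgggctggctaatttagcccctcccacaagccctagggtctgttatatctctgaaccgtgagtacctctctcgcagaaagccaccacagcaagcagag

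Searched on both strands were GGANTTTCC (NF-kB), GAAANNGAA (interferon regulatory factors), TGANTCA (AP-1), TGACGT (CRE half-site) and GAGGAA (PU.1 and related ETS factors). The downstream Entpd1 window held GAGGAA at 2 places and TGACGT at 1, on the opposite strand as ACGTCA, and the upstream window held none of the 5. Over 32851 RefSeq windows of the same 300 bases, 1.25% held GGANTTTCC, 8.56% GAAANNGAA, 7.81% TGANTCA, 7.51% TGACGT and 28.3% GAGGAA. The RefSeq table matched 8 of the 10 genes, in 12 windows, and Adora2a and P2ry6 had none. Of the other genes matched, P2ry14 and P2ry13 had a motif in a window. A match of letters is a description, not a binding site.

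Ada encodes adenosine deaminase, which turns adenosine into inosine inside the cell and, bound to surface partners, outside it. Ada (ENSMUSG00000017697.3, chr2:163726584-163750239, minus strand) had 1.28, 1.31 and 1.65 TPM, or 3.40, 2.61 and 3.92 protein-coding CPM from 163, 51 and 159 counts in replicates 1, 2 and 3. It passed the limit of 1 TPM by little and sat at the 4.64th percentile of nuclear protein-coding genes with at least 1 TPM. Ada was above Nt5e by 3.67 ± 0.42 in log2 ratio (SD, n = 3), in 3 of 3 libraries. Nearly all of it, 98.2% ± 3.16, was Ada-201.

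The 6 pairs of roles compared were Entpd1 with Nt5e, Ada with Nt5e, Adora2b with Adora2a, P2ry6 with P2ry14, P2ry13 with P2ry12, and P2rx4 with P2ry6, the last at 2.09 ± 0.21 in log2 ratio (SD, n = 3). Each kept 1 direction in 3 of 3 libraries. An exact two-sided sign-flip permutation test over 3 libraries cannot go below 0.25, and it gave p = 0.25 for each pair, also after Benjamini-Hochberg adjustment over the 6.

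The rest of the pathway was read from 7 lists with 50 genes in all. Of these, 29 reached 1 TPM in every library, 21 of them among the 40 genes other than those described above. The background was 42.1% of nuclear protein-coding genes. The lists were chosen with earlier results of these data known, so the counts are a description only. Of 7 P2X receptor genes 2 reached the limit, P2rx4 and P2rx7, the channel whose opening drives inflammasome activation. P2rx7 had 15.9, 30.7 and 17.9 TPM in replicates 1, 2 and 3, while P2rx1 and P2rx6 had 0.287 ± 0.0473 and 0.153 ± 0.0569 TPM (SD, n = 3). Of 9 P2Y receptor genes 6 reached it. They included P2ry2, the receptor for ATP and UTP, with 3.14 ± 0.189 TPM, and P2ry10b with 3.52 ± 1.10 TPM, and P2ry1 stayed at 0.187 ± 0.0586 TPM. Of 4 adenosine receptor genes only Adora2a reached it.

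Of 9 ectoenzyme genes 3 reached the limit, Entpd1, Cd38 and Enpp1, and Entpd8, Enpp3 and Alpl had no count in any library. Cd38, which degrades NAD outside the cell, had 5.69, 13.5 and 9.91 TPM in replicates 1, 2 and 3. Enpp1, which cuts ATP directly to AMP and degrades cyclic GMP-AMP, had 3.54 ± 1.24 TPM (SD, n = 3), and Entpd2 had 1 count in all. None of the listed genes for making adenosine from AMP outside the cell, Nt5e and Alpl, reached 1 TPM.

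Of 7 genes for the fate of adenosine 5 reached the limit. Pnp, the phosphorylase that acts on inosine after Ada, had 149, 322 and 342 TPM in replicates 1, 2 and 3, far above Ada in each library. The nucleoside transporter genes Slc28a2 and Slc29a1 had 16.9 ± 3.19 and 13.3 ± 1.06 TPM (SD, n = 3). Of 4 genes for ATP release 2 reached it, the volume-regulated channel subunit Lrrc8a with 8.01 ± 1.10 TPM and the pannexin Panx1 with 4.52 ± 0.824 TPM. Gja1 had 0.63, 2.37 and 0.34 TPM in replicates 1, 2 and 3. All 10 genes of receptor signalling reached the limit, led by the G protein subunits Gnas with 223 ± 32.7 TPM and Gnai2 with 217 ± 28.5 TPM. Gna13 followed with 47.0, 65.5 and 74.5 TPM in replicates 1, 2 and 3.

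**Figure D5:**
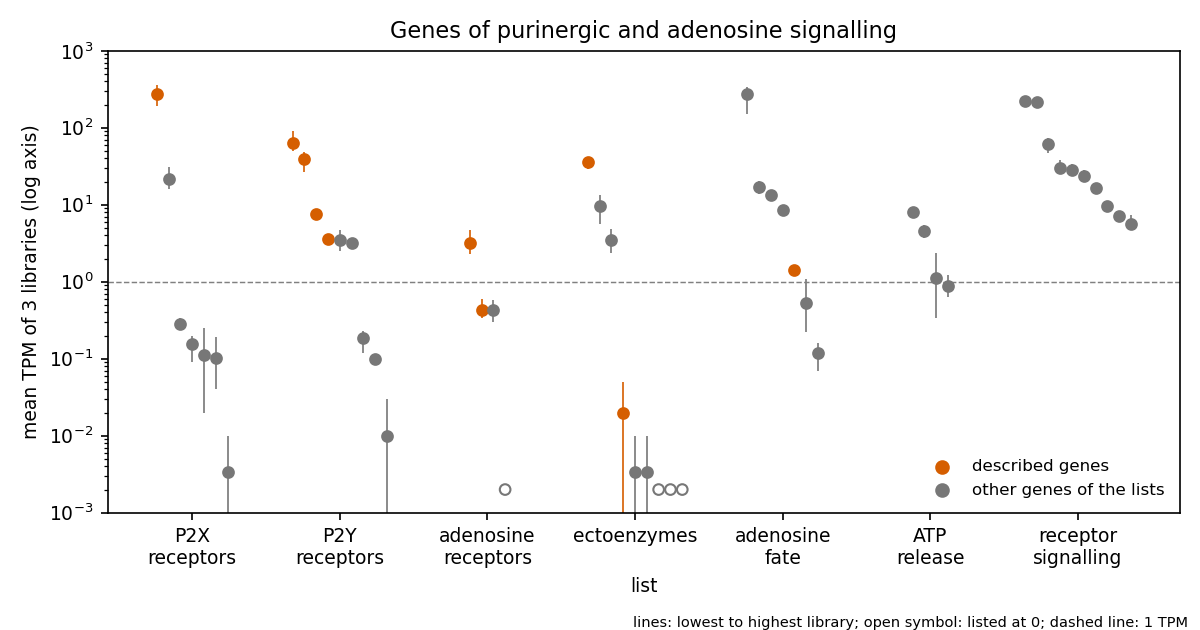
Mean TPM over the 3 libraries (log axis) of the genes of 7 pathway lists, with lines from the lowest to the highest library and open symbols for genes listed at 0. The genes described here are in orange; in the ectoenzyme list Entpd1 lies at 35.6 TPM and Nt5e near the bottom of the axis.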

How the data were processed

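RNA of 3 libraries was analysed. Per the file headers, the authors deposited gene tables with expected counts (not normalized), TPM, FPKM and bounds of TPM, transcript tables with the same units and each transcript's percent of its gene, and further transcript tables with estimated counts and TPM. Per the deposited description files, the build was mm10 with GENCODE M21 annotation, the former tables came from an alignment and the latter from the reads. Not given in the sources used here are the programs, their versions and the use of strand. Estimates of this kind split reads between similar transcripts.

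The 10 genes and all lists were chosen with earlier results of these data known. All 10 genes are named, and of the other genes of each list the 3 with the highest mean TPM. The result for 1 marker gene is not reported here. Of the 81881 identifiers, 55536 matched the annotation. Log2 ratios used TPM + 0.1 per library. Dispersions came from edgeR 4.0.16 (R 4.3.3) on rounded expected counts, with an intercept only, TMM and filterByExpr. In simulated data a coefficient of 0.2 was estimated as 0.212 over 12081 genes, and 0.6 as 0.248 over 200 genes, so single variable genes were drawn towards the trend. An alternative used DESeq2 1.42.0. Tables were handled in pandas 2.3.3 and numpy 2.4.6 under Python 3.11.15, sequences in Biopython 1.88, exact tests in scipy 1.17.1 and figures in matplotlib 3.10.9. Exons and coding starts were read from the GENCODE transcripts, and promoter windows from RefSeq.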

Additional observations from a re-analysis of the deposited data

How the results depend on the processing

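The 6 log2 ratios between roles kept their direction in all 42 alternatives run (read-based TPM, pseudocounts of 1 and 0.01, FPKM, each replicate left out). Of the 10 genes, 1 had its highest library over 2-fold above the lowest, Adora2a. Without the limit of 1 TPM the count was 2, the other being Nt5e with 12, 0 and 3 counts, and with each replicate left out it ranged from 0 to 1. Levels moved beyond 1 SD for 9 of 10 genes with read-based TPM and for 10 of 10 with TPM rescaled to protein-coding genes. Rescaling divides each TPM by the share of TPM held by these genes, so every level above 0 rises by arithmetic. That share was 29.6%, 40.4% and 34.8% in replicates 1, 2 and 3, and 20.5%, 21.4% and 7.95% by read-based TPM. With both rescaled, the log2 ratio of read-based to aligned means ran from -0.12 to 0.40 over the 8 genes at 1 TPM or more. Of 21 transcript shares, 10 moved beyond 1 SD with the read-based tables, and the cause of these moves was not tested. The count of neighbouring pairs separated in the order of levels was 6, and 8 without replicate 3, an alternative chosen after seeing the data. The count of genes at 1 TPM or more was 8, 6 with read-based TPM, 9 with TPM rescaled to protein-coding genes and 9 with a limit of 10 expected counts in place of TPM. No paired analysis was possible because there is 1 group. With 12, 0 and 3 counts, depth limits Nt5e most.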
